A study of Mus musculus with 6 samples.

Results

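The mature red cell keeps its shape through a protein mesh under the membrane. Spectrin tetramers form the mesh, ankyrin ties it to the anion exchanger band 3, and the Rh complex, the Kell protein and water and gas channels sit in the same membrane. Developing red cells (erythroblasts) switch these genes on as they mature, and several of the proteins carry blood group antigens in humans. The genes described here are 8 of that membrane: the beta spectrin gene Spnb1 (now Sptb), the ankyrin gene Ank1, the band 3 gene Slc4a1, the blood group genes Kel, Rhag, Rhd and Ermap, and the water channel gene Aqp1. They were picked by symbol, with earlier results of these data known, from the 33924 genes of the count table. All 8 passed the filter on low counts, with between 1623 and 25876 reads in every library.

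The RNA came from mouse bone marrow after magnetic-bead removal of cells with lineage markers, in 3 Stag2KO and 3 Stag2WT libraries. Stag2 is part of cohesin, a ring-shaped complex that pairs sister chromatids and folds chromatin. The labels give the genotype by these names alone. The sources used here do not give the allele, any recombinase driver, the strain, the age or whether each library is a separate animal, so p-values measure the spread between these samples, which may be technical. Lineage cocktails for mouse marrow commonly hold the TER-119 antibody against maturing red cells, and the mixture left behind contains red cell precursors among other progenitors.

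The libraries held 29435651 to 37722325 gene reads, and 15708 genes were tested. Stag2 itself stood at 169, 187 and 183 CPM (gene reads on a common, normalised library size) in the Stag2KO libraries and 338, 329 and 324 CPM in the Stag2WT libraries. The log2 fold change was -0.88 (SE 0.06; adjusted p = 0.000278, edgeR quasi-likelihood). Reads were counted over the gene, and the part deleted is not given. Reads outside annotated genes were 11.7% ± 0.984 in Stag2KO and 9.24% ± 0.725 in Stag2WT (SD, n = 3 each). This share differs with genotype, and its part in the results was not tested.

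All 8 genes had lower means in Stag2KO marrow, and for each the Stag2KO values lay below the whole Stag2WT range. A gene is called here when its adjusted p, over all tested genes, is under 0.05. Spnb1, Ank1, Rhag, Ermap and Aqp1 fell under this rule, while Slc4a1, Kel and Rhd did not pass it. Thus 5 of 8 were called lower and 0 higher, against 10.5% of all tested genes called lower and 10.7% called higher. Groups without overlap and with Stag2KO lower made up 21.2% of all tested genes, against 8 of 8 here, and those with Stag2KO higher 22.2%, against 0 of 8. The median log2 fold change of the 8 genes was -0.75, against 0.01 over all tested genes. The 8 genes were chosen with earlier results known and moved together across the libraries, so these shares are description and not independent support. Because the marrow was measured in bulk, fewer red cell precursors and less RNA per precursor cannot be told apart.

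**Figure D1:**
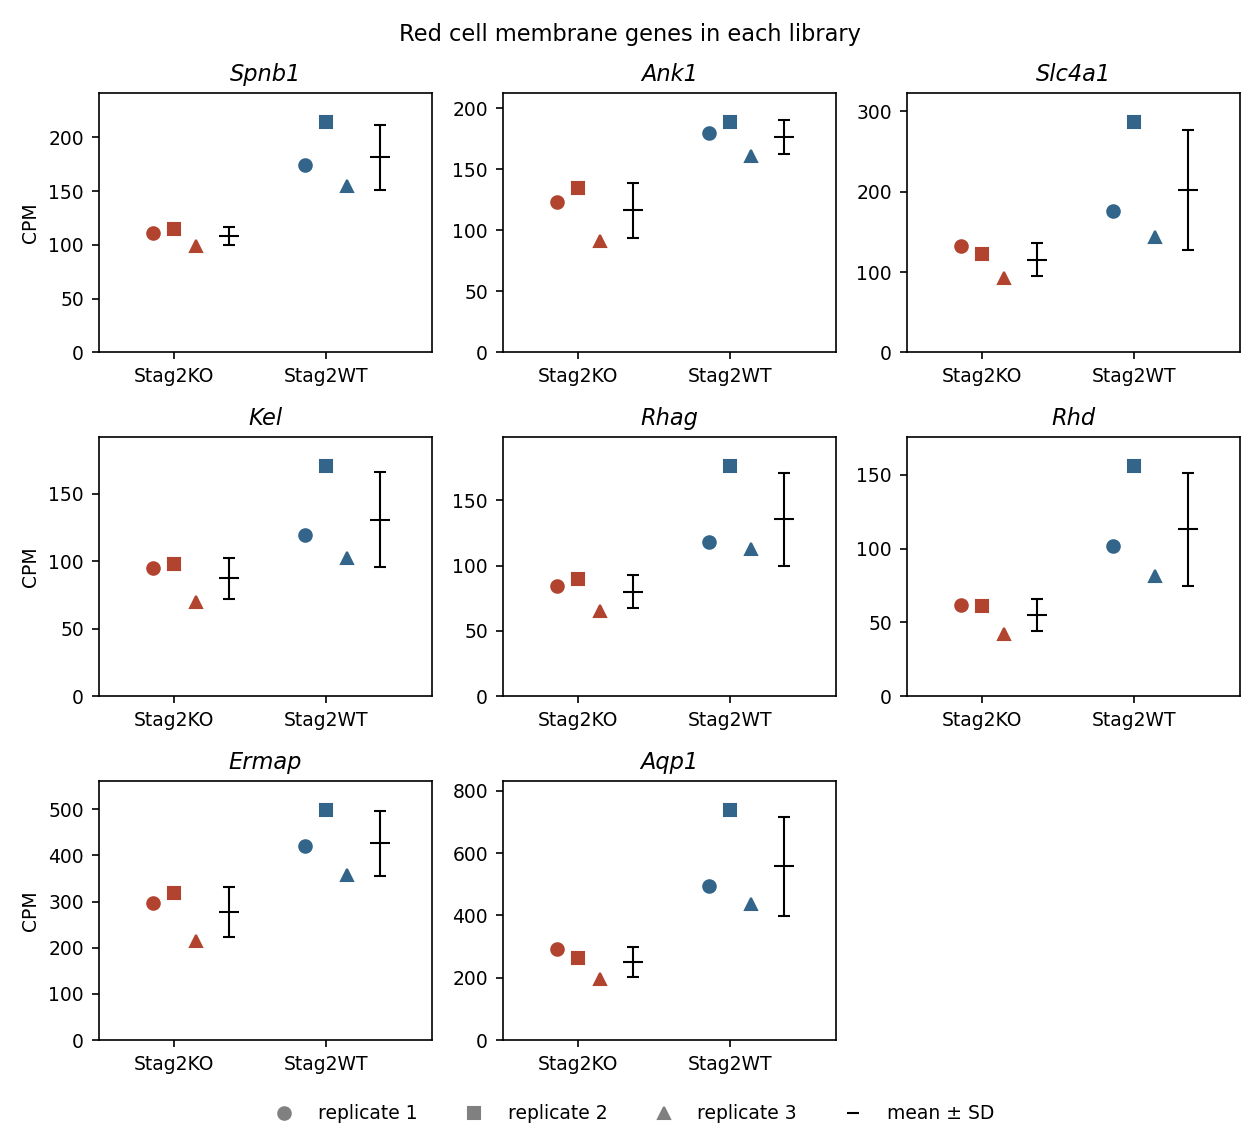
CPM (y axis, from 0) of the 8 red cell membrane genes in each Stag2KO library (red) and Stag2WT library (blue), with marker shapes for replicates and bars for mean ± SD. In every panel the Stag2KO points lie below the Stag2WT points, with Stag2KO replicate 3 lowest and Stag2WT replicate 2 highest.

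Start-site sequences are shown because red cell genes are commonly bound near their start by GATA1, the main red cell transcription factor. RefSeq's promoter table (GRCm38.p6) held 6 of the 8 genes, as Sptb for Spnb1, with Kel, Rhag, Rhd, Ermap and Aqp1 under the same symbol. The 100 bases before each start are printed 5′ to 3′ on the gene's strand, with capitals marking GATA motifs, which are AGATAA, its variant with a first T (TGATAA) and the form of either that ends in G, on either strand.
Kel (chr6:41704326-41704425, minus strand): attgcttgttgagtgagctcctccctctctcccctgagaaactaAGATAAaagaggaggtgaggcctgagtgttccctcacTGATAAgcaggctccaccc
Rhag (chr17:40811049-40811148, plus strand): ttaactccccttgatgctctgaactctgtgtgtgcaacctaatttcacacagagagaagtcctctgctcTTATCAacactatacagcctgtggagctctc
Rhd (chr4:134864436-134864535, plus strand): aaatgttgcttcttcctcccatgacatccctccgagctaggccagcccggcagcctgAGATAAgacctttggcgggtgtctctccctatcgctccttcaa
Ermap (chr4:119189996-119190095, minus strand): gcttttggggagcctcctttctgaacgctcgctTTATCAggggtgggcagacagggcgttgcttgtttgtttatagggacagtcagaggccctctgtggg
Spnb1 (chr12:76710548-76710647, minus strand): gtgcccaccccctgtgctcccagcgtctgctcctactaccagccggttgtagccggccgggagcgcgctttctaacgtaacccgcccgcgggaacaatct
Aqp1 (chr6:55336199-55336298, plus strand): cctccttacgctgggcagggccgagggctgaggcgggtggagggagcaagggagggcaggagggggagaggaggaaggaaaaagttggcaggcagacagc

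The 4 blood group genes Kel, Rhag, Rhd and Ermap held such a motif within these 100 bases, against 10.4% of all 32851 promoters in the table. The motif began 56 and 19 bases before the start in Kel, 31 in Rhag, 43 in Rhd and 67 in Ermap. Spnb1 and Aqp1 held none in this window; in Spnb1 one began at base 13 after the start. Over the longer window from 250 bases before to 50 after the start, 5 of 6 genes and 29.8% of all promoters held 1 or more. The letters CCNCNCCC on either strand, a form of the CACC motif bound by KLF factors, occurred in that longer window in Spnb1, Rhd and Aqp1, so in 3 of 6 genes, and in 49.5% of all promoters. These matches describe letters only, and motifs and windows were chosen after other values had been seen.

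Among the genes of the membrane skeleton, Spnb1, the beta chain of spectrin, was the most clearly lower. Spnb1 was at 112, 115 and 99.1 CPM in the Stag2KO libraries, against 175, 214 and 155 CPM in the Stag2WT libraries. All 3 Stag2KO values fell within a narrow band, well under the lowest Stag2WT library. The means were 109 ± 8.35 CPM in Stag2KO and 181 ± 30.0 CPM in Stag2WT (SD, n = 3 each), a log2 fold change of -0.74 (SE 0.12; edgeR adjusted p = 0.00576). Spnb1 stayed called in all 6 fits that left out 1 library, with adjusted p from 0.00608 to 0.0195.

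Ank1, the erythroid ankyrin that joins spectrin to band 3, was at 123, 135 and 91.2 CPM in Stag2KO, against 179, 188 and 161 CPM in Stag2WT. Its Stag2WT libraries were the most alike of the 8 genes, with a coefficient of variation of 7.96%. The log2 fold change was -0.60 (SE 0.14; edgeR adjusted p = 0.0266), leaving 66.0% of the Stag2WT level. The Ank1 call did not hold without Stag2KO replicate 1 (adjusted p = 0.0551), nor without Stag2WT replicate 1 (0.0659) or 2 (0.103). In the GENCODE M21 annotation, exons of Ank1 overlap the antisense gene Gm15816 and exons of Spnb1 overlap Plekhg3 on the other strand. The strand setting of the counting is not given, so reads there cannot be told apart; Plekhg3 was not called (0.22 on the log2 scale; adjusted p = 0.121), and Gm15816 was at 1.22 ± 0.335 CPM in Stag2KO, against 1.82 ± 0.291 CPM in Stag2WT.

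Of the channels and transporters, Aqp1 showed the largest fall of the 8 genes. Aqp1 encodes a water channel that carries the Colton blood group in humans. It was at 292, 265 and 197 CPM in Stag2KO, against 496, 739 and 438 CPM in Stag2WT. The means were 251 ± 49.1 CPM in Stag2KO and 557 ± 159.8 CPM in Stag2WT (SD, n = 3 each). Its log2 fold change, -1.15 (SE 0.24; adjusted p = 0.0237, edgeR), leaves 45.1% of the Stag2WT level. The Aqp1 call did not hold without Stag2KO replicate 2 (adjusted p = 0.0723) but was kept in the other 5 such fits.

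Vessel walls also express Aqp1, so markers of endothelial cells were read beside it. Of 12 endothelial markers, Stab2 alone was called lower and 5 were called higher (Emcn, Flt1, Tie1, Pecam1 and Esam), with 6 not called. Over all tested genes, 10.5% were called lower and 10.7% higher. By sign alone 7 of the 12 were negative and 5 positive, with a median log2 fold change of -0.21. Cdh5 (-0.56), Kdr (-0.52) and the low-level Cldn5 (-1.09) were among the negative ones and were not called. Stab2, a scavenger receptor of sinusoids, had a log2 fold change of -1.39 (edgeR adjusted p = 0.00111) and kept its call whichever library was left out. Of the 5 higher calls, 2 were left without Stag2KO replicate 1, 1 without Stag2KO replicate 2 and 4 without Stag2WT replicate 3. Without Stag2KO replicate 3 or Stag2WT replicate 1 or 2, 0 were left. Such fits have fewer samples and called 1967 to 2548 genes over the whole table, in place of 3333. Esam was called in 0 of these 6 fits (adjusted p 0.059 to 0.116). The 12 summed to 193 to 211 CPM in Stag2KO and 173 to 202 CPM in Stag2WT, and no marker was at 0 in any library. Pecam1 alone held 108, 124 and 119 CPM of this sum in Stag2KO and 97.0, 86.2 and 102 CPM in Stag2WT. The part of endothelial RNA in the Aqp1 result was not tested.

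Slc4a1 encodes band 3, which swaps chloride for bicarbonate and anchors the skeleton. It was at 132, 122 and 92.8 CPM in Stag2KO, against 176, 287 and 144 CPM in Stag2WT. Stag2WT replicate 2 was far above the other libraries, and the Stag2WT coefficient of variation of 37.1% was the highest of the 8 genes. The log2 fold change was -0.80 with an unadjusted 95% interval from -1.55 to -0.055, and it did not pass the test (adjusted p = 0.116 by edgeR). Without Stag2WT replicate 2 the log2 fold change was -0.46 (adjusted p = 0.149).

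Among the Rh genes, Rhag encodes the glycoprotein that carries the Rh complex to the membrane and serves as a gas or ammonia channel. It was at 84.6, 90.0 and 65.6 CPM in Stag2KO, against 118, 176 and 112 CPM in Stag2WT. The log2 fold change was -0.76 (SE 0.21; edgeR adjusted p = 0.0498), just inside the threshold. Its call was lost whichever library was left out: without Stag2KO replicate 1, 2 or 3 the adjusted p was 0.11, 0.0893 or 0.117, and without Stag2WT replicate 1, 2 or 3 it was 0.0656, 0.0595 or 0.0528. It was also lost with median-ratio size factors (adjusted p = 0.0502).

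Rhd, the Rh protein gene itself, was at 61.5, 61.2 and 42.5 CPM in Stag2KO, against 102, 156 and 81.4 CPM in Stag2WT. All Stag2KO libraries lay below the lowest Stag2WT one, but the Stag2WT libraries were widely spread. The log2 fold change was -1.04 (95% interval -1.76 to -0.32), which missed the threshold (adjusted p = 0.0579 by edgeR). Rhd was called without Stag2WT replicate 3 (adjusted p = 0.0369), with at least 5 CPM in at least 3 libraries (0.0456), with DESeq2 (0.00964), with limma-voom (0.0285) and without robust dispersion (0.025).

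Rhd and Rhag proteins sit in 1 complex, so their ratio was followed as well. The log2 ratio of Rhd to Rhag reads was -0.46, -0.56 and -0.63 in Stag2KO, against -0.21, -0.18 and -0.47 in Stag2WT. The groups overlapped only between Stag2KO replicate 1 and Stag2WT replicate 3. The difference of means was -0.26 (exact permutation test, two-sided, p = 0.2; 0.1 is the smallest p that 3 against 3 samples allow).

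Kel encodes the Kell protein, a surface metallopeptidase that carries the Kell blood group in humans. It was at 94.6, 97.7 and 69.7 CPM in Stag2KO, against 119.6, 170.4 and 103 CPM in Stag2WT. The nearest values of the groups, those of Stag2KO replicate 2 and Stag2WT replicate 3, were close together. Kel did not pass the test (log2 fold change -0.58, 95% interval -1.13 to -0.034, adjusted p = 0.118 by edgeR), though DESeq2 called it (adjusted p = 0.0108). Without Stag2WT replicate 2 the log2 fold change of Kel was -0.35 (adjusted p = 0.223). Kel had the smallest fold change among the 8 genes, though the intervals of all 8 overlapped and differences between them were not tested.

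Ermap encodes an erythroblast membrane protein that carries the Scianna blood group in humans. It was at 298, 319 and 215 CPM in Stag2KO, against 421, 499 and 358 CPM in Stag2WT. The means were 277 ± 55.0 CPM in Stag2KO and 426 ± 70.4 CPM in Stag2WT (SD, n = 3 each), a log2 fold change of -0.62 (SE 0.18; edgeR adjusted p = 0.0498). Its call did not hold without Stag2KO replicate 1 (adjusted p = 0.0885), 2 (0.059) or 3 (0.0631), without Stag2WT replicate 1 (0.104) or 2 (0.151), or with median-ratio size factors (0.0501).

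**Figure D2:**
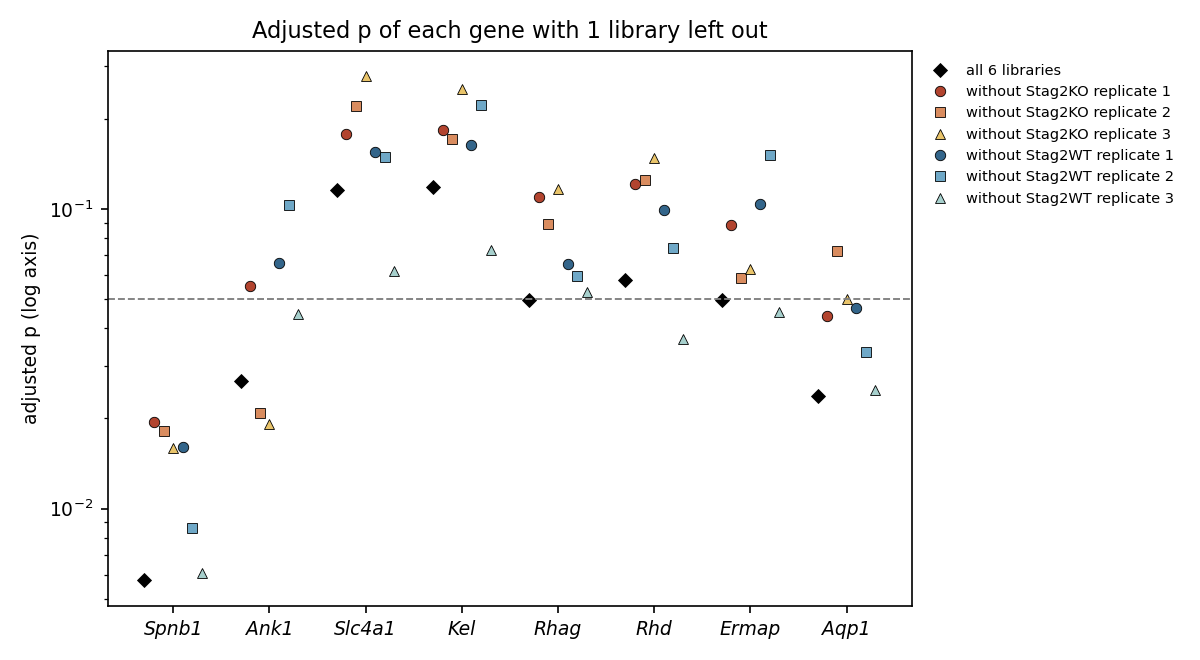
Adjusted p (log axis) of each of the 8 genes by edgeR with all 6 libraries (black) and with each library left out in turn; the dashed line is 0.05. Spnb1 lies under the line throughout, Slc4a1 and Kel above it throughout, and Rhag lies above it in all 6 fits with 1 library left out.

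The 8 genes moved through the libraries in nearly the same way. Each was highest in Stag2WT replicate 2 and lowest in Stag2KO replicate 3, and in each the Stag2WT libraries ranked 2, 1, 3. Over all tested genes, 26.9% were highest in Stag2WT replicate 2, 16.0% lowest in Stag2KO replicate 3, and 20.9% had that order of Stag2WT libraries. The 8 genes together summed to 1197, 1205 and 873 CPM in Stag2KO, against 1786, 2430 and 1552 CPM in Stag2WT. As a description over 6 libraries in 2 groups, each gene's log2 CPM correlated with the mean of the other 7 at 0.940 (Ank1) to 0.998 (Rhd), and these points share genotype and library.

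The 5 genes outside the group whose log2 CPM was most like its mean were Dnajb3 (r = 0.999), Ifrd2 (0.998), Cenpk (0.998), Nfs1 (0.997) and Stard10 (0.997), over the same 6 libraries. Nfs1, the cysteine desulfurase of iron-sulfur cluster assembly, was not called, at 56.5 ± 4.08 CPM in Stag2KO, against 68.9 ± 6.95 CPM in Stag2WT (log2 fold change -0.29; edgeR adjusted p = 0.0544). Cenpk, a kinetochore gene, was at 25.6 ± 3.52 CPM in Stag2KO, against 42.6 ± 8.72 CPM in Stag2WT (edgeR log2 fold change -0.74; adjusted p = 0.0186), and Stard10, a lipid transfer gene, at 66.9 ± 13.1 CPM in Stag2KO, against 122 ± 31.0 CPM in Stag2WT (edgeR log2 fold change -0.86; adjusted p = 0.0463). Dnajb3 was low, at 0.897 ± 0.256 CPM in Stag2KO, against 2.62 ± 1.16 CPM in Stag2WT (SD, n = 3 each).

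The rest of the red cell membrane was read from 3 further lists with 45 genes, of which 44 were tested. In all, 7 were called lower, 1 higher and 36 not called, and the median log2 fold change was -0.17. Over all tested genes 10.5% were called lower and 10.7% higher. Icam4, the Landsteiner-Wiener antigen gene, had 0 reads in every library and was not tested. The annotation behind the counts is not given, so absent RNA and reads not assigned to Icam4 cannot be told apart.

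In the skeleton list, 1 of 11 genes was called lower and 1 higher. Epb4.2, the band 3 partner protein 4.2, fell to 20.0 ± 4.68 CPM in Stag2KO, against 48.5 ± 15.8 CPM in Stag2WT (edgeR log2 fold change -1.28; adjusted p = 0.0276). Tmod1, which caps the short actin filaments of the mesh, rose to 4.77 ± 1.12 CPM in Stag2KO, against 2.63 ± 0.539 CPM in Stag2WT (edgeR log2 fold change 0.86; adjusted p = 0.0377). The Epb4.2 call was lost without Stag2KO replicate 1, 2 or 3 or Stag2WT replicate 1 (adjusted p 0.0538 to 0.0825). The Tmod1 call was lost without Stag2KO replicate 1 or 2 or Stag2WT replicate 2 or 3 (0.0911 to 0.105). The other 9 members, among them the protein 4.1 gene Epb4.1 (-0.16) and the adducin genes Add1 (0.10) and Add2 (-0.38), did not pass the test.

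In the transport list, 4 of 17 genes were called lower and 0 higher. Abcb6, a porphyrin transporter that carries the Langereis blood group in humans, fell to 30.6 ± 2.71 CPM in Stag2KO, against 51.9 ± 11.9 CPM in Stag2WT (edgeR log2 fold change -0.77; adjusted p = 0.0162). The nucleoside transporter gene Slc29a1 (log2 fold change -0.60; adjusted p = 0.0207) and the potassium-chloride cotransporter gene Slc12a4 (-0.54; 0.0106) also fell. So did the lactate transporter gene Slc16a1 (-0.40; adjusted p = 0.0432), a call lost without any library except Stag2WT replicate 3 (0.0526 to 0.12).

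Of the 16 tested genes in the blood group and surface list, 2 were called lower and 0 higher. Xk, whose protein is bound to Kell, was at 53.1 ± 2.90 CPM in Stag2KO, against 75.8 ± 11.05 CPM in Stag2WT (edgeR log2 fold change -0.51; adjusted p = 0.0125). Cd55, the decay-accelerating factor that carries the Cromer blood group in humans, was at 23.8 ± 1.10 CPM in Stag2KO, against 37.1 ± 4.37 CPM in Stag2WT (edgeR log2 fold change -0.64; adjusted p = 0.00489). Xk and Cd55 kept their calls in all 6 fits without 1 library.

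**Figure D3:**
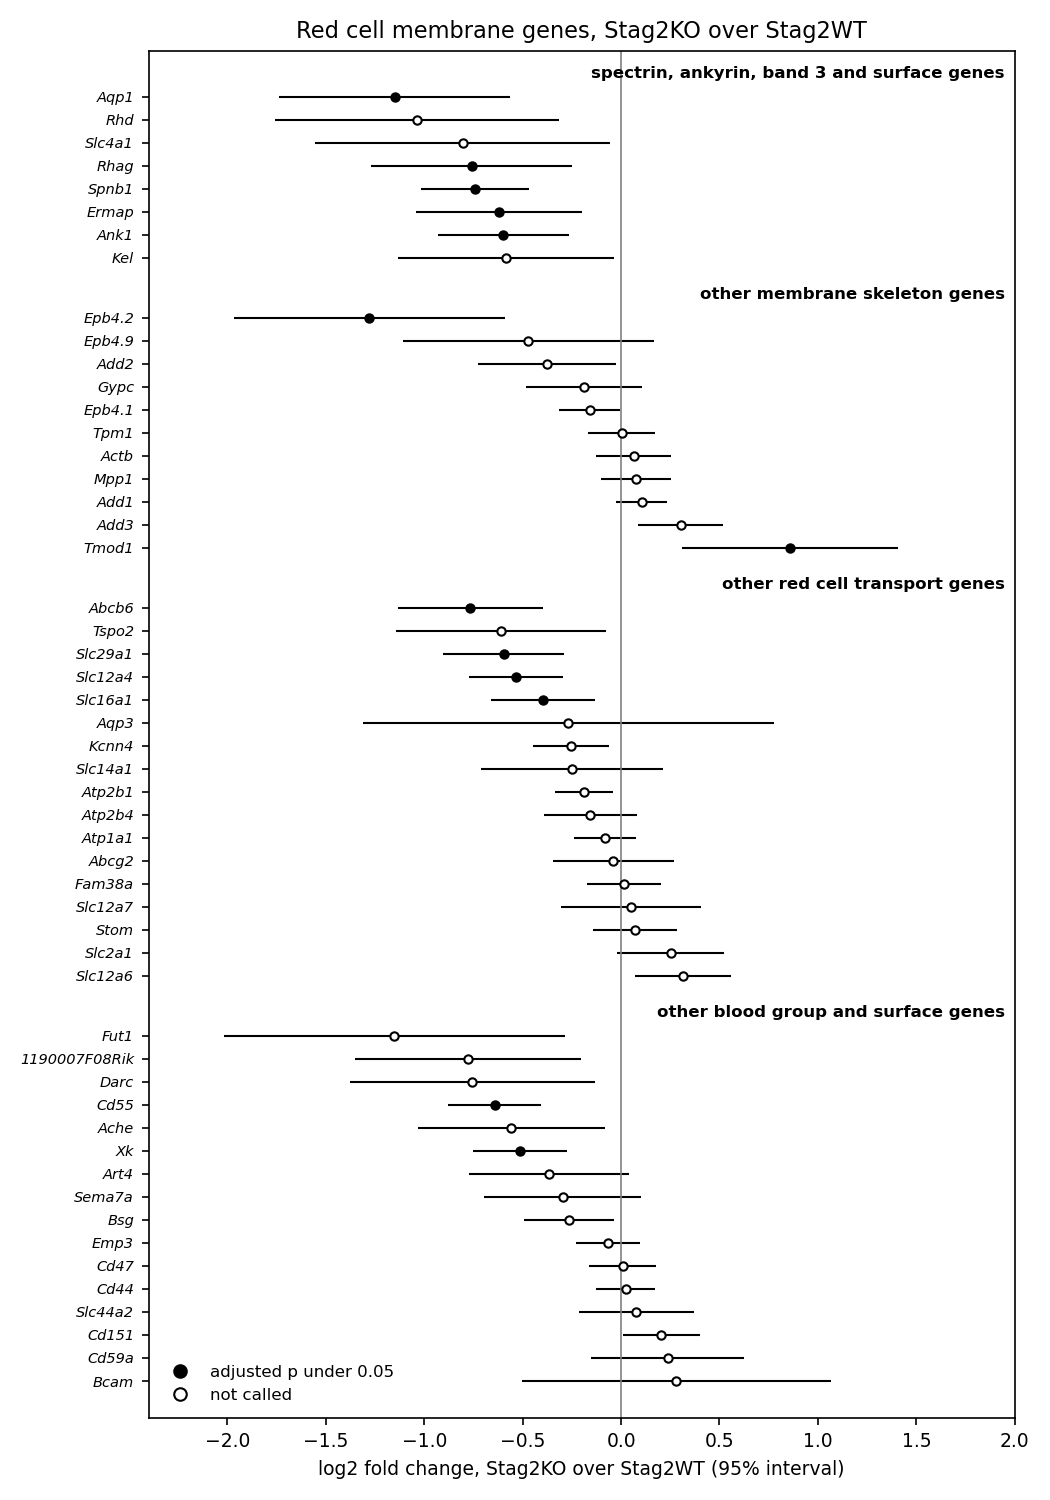
Log2 fold changes, Stag2KO over Stag2WT, with unadjusted 95% intervals from the edgeR fit for the 8 genes and the 3 further red cell membrane lists. Filled points are called at an adjusted p under 0.05. All 8 genes at the top lie left of 0, while the further lists spread to both sides.

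Close relatives of the 8 genes that serve other cells were read beside them. Spnb2, the beta spectrin of most other cells, was at 372, 363 and 382 CPM in Stag2KO, against 247, 195 and 278 CPM in Stag2WT, and so rose while Spnb1 fell (log2 fold change 0.63, adjusted p = 0.01 by edgeR). It was lowest in Stag2WT replicate 2, the library in which Spnb1 was highest. Aqp9, a water and glycerol channel of myeloid cells, rose (0.50, adjusted p = 0.0145), and the low-level Ank2 fell to 0.479 ± 0.0708 CPM in Stag2KO, against 1.11 ± 0.219 CPM in Stag2WT (adjusted p = 0.0178). The Ank2 call was lost without Stag2KO replicate 2 (0.0606) or Stag2WT replicate 2 (0.062). Of 11 tested relatives, 1 was called lower, 2 higher and 8 not called, against 10.5% lower and 10.7% higher over all tested genes.

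Other red cell genes shared the order of the libraries in part. Of 10 erythroid factor and receptor genes, 4 were called lower and 1 higher, against 10.5% and 10.7% of all tested genes. The lower ones were Klf1 (-0.81, adjusted p = 0.044), the GATA1 partner gene Zfpm1 (-0.50, adjusted p = 0.0417), the erythropoietin receptor gene Epor (-0.68, adjusted p = 0.0446) and the transferrin receptor gene Tfrc (-0.61, adjusted p = 0.0265), and Nfe2 rose (0.36, adjusted p = 0.00563), all by edgeR. Each of the 4 calls was lost without Stag2KO replicate 1, 2 or 3 or Stag2WT replicate 1 (adjusted p 0.0584 to 0.124), and those of Zfpm1 and Epor also without Stag2WT replicate 2 (0.101 and 0.0789). Without Stag2WT replicate 3, 6 of these 10 genes were called lower, against 8.18% of all genes tested in that fit. Of these 10 genes, 9 were highest in Stag2WT replicate 2 and 9 lowest in Stag2KO replicate 3. By sign 9 of the 10 were negative. Gata1 itself was among the 5 genes not called (log2 fold change -0.39, adjusted p = 0.121 by edgeR), and its groups overlapped.

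Of 11 heme synthesis genes, 10 were highest in Stag2WT replicate 2, and 2 were called lower, against 10.5% of all tested genes. These were Cpox (-0.55, adjusted p = 0.0379 by edgeR) and Tmem14c (-0.64, adjusted p = 0.0335). Both calls were lost without Stag2KO replicate 1, 2 or 3 (0.0691 to 0.0968), and that of Cpox also without Stag2WT replicate 1 (0.0592) or 2 (0.0527). Without Stag2WT replicate 3, 7 heme synthesis genes were called lower, and without robust dispersion 4. The shares of all genes called lower in these fits were 8.18% and 10.3%. By sign 10 of the 11 were negative and 1, Alas2, was positive. Alas2 was level, at 36.2 ± 8.46 CPM in Stag2KO against 35.6 ± 10.9 CPM in Stag2WT (edgeR log2 fold change 0.02, adjusted p = 0.94). Of the 4 tested globin genes, 0 were called, and 1 was highest in Stag2WT replicate 2. The log2 fold changes (95% intervals) were -0.44 (-1.27 to 0.38) for Hba-a1 and 0.27 (-0.62 to 1.15) for Hba-a2. Those of Hbb-b1 and Hbb-b2 were -0.05 (-0.86 to 0.76) and -0.56 (-1.58 to 0.46). With intervals this wide, the lack of a call does not show that globin RNA was level. The summed globin level was 302 to 494 CPM in Stag2KO and 287 to 583 CPM in Stag2WT, with overlapping groups. Reads matching several places were not counted to any gene. Reads shared between globin genes would be missing from this sum, and their share was not tested.

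**Figure D4:**
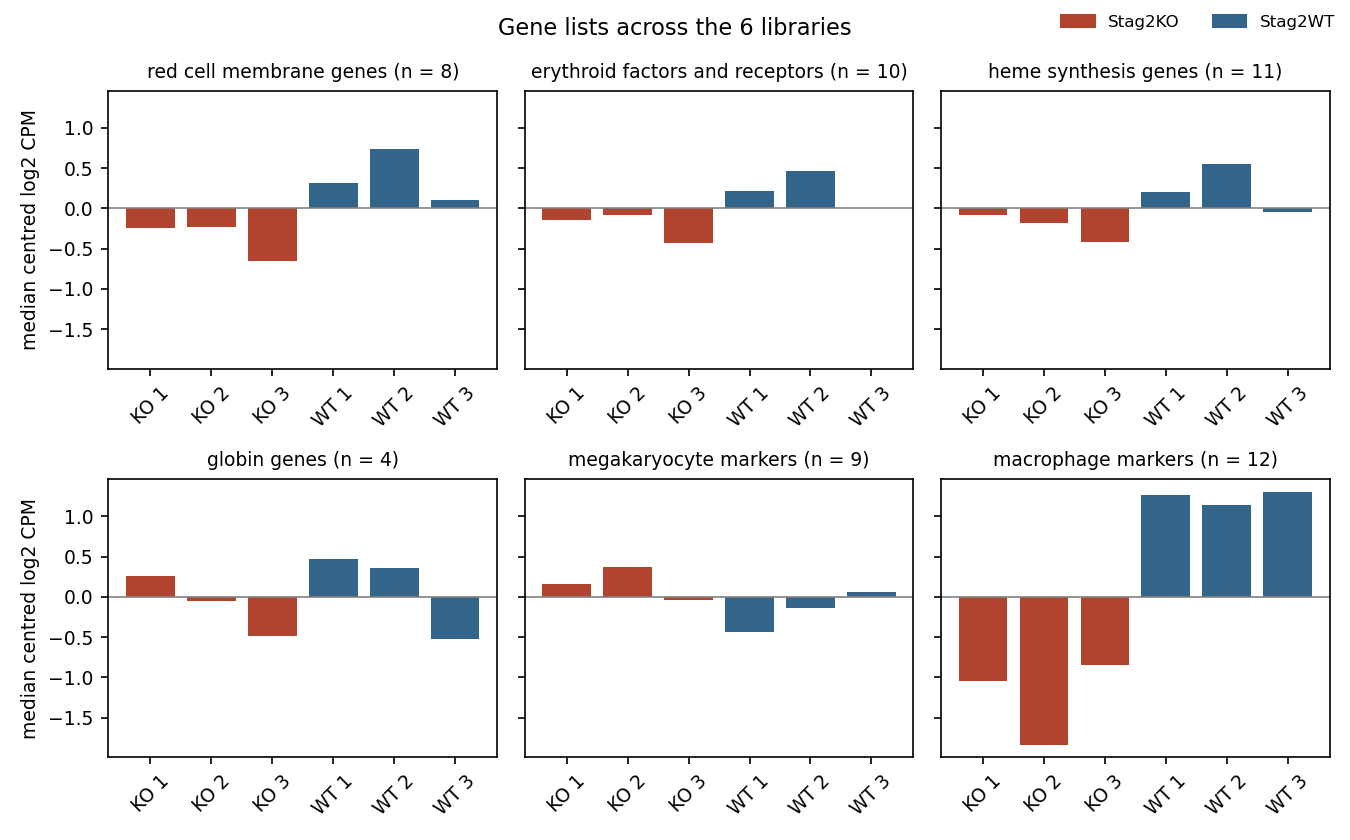
Median over each gene list of log2 CPM centred on the 6-library mean of each gene (y axis), in the 3 Stag2KO libraries (red, left) and the 3 Stag2WT libraries (blue, right). The red cell membrane genes run between -0.65 in Stag2KO replicate 3 and 0.74 in Stag2WT replicate 2; the macrophage markers separate the groups with another order within them.

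Red cell precursors mature around macrophages, and macrophage markers moved with genotype too. Of 12 such markers, 11 were called lower, against 10.5% of all tested genes, and Dnase2a was not called. Cd163, a hemoglobin scavenger receptor gene, stood at 13.7 ± 1.21 CPM in Stag2KO, against 74.2 ± 11.2 CPM in Stag2WT (SD, n = 3 each), and Vcam1, an adhesion molecule, at 109.9 ± 20.9 CPM in Stag2KO, against 281.8 ± 20.5 CPM in Stag2WT. The summed level of the 12 was 246 to 359 CPM in Stag2KO and 1096 to 1203 CPM in Stag2WT, with no marker at 0. Within Stag2KO that sum was lowest in replicate 2, not in replicate 3, where the 8 genes were lowest. Megakaryocytes share a precursor with red cells. Of 9 markers, 3 were called higher (Gp5, Itgb3 and Itga2b), 0 lower and 6 not called. Over all tested genes, 10.7% were called higher and 10.5% lower. By sign alone 7 of the 9 were positive, while Gp6 (-0.26) and Ppbp (-0.35) were negative. Itga2b was not called when Stag2KO replicate 2 (adjusted p = 0.0749) or any of Stag2WT replicates 1 (0.101), 2 (0.143) and 3 (0.0608) was left out. The summed level of the 9 was 444 to 560.1 CPM in Stag2KO and 346 to 441 CPM in Stag2WT, with no marker at 0. Itga2b alone held 215, 283 and 217 CPM of this sum in Stag2KO and 179, 169 and 195 CPM in Stag2WT. The part of either cell type in the change of the 8 genes was not tested.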

How the data were processed

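The authors deposited unnormalised whole-number counts for 6 libraries by gene symbol. The submitters' processing notes name STAR 2.4, HTSeq 0.6.1, DESeq2 and mm9. The annotation, strand setting and kit are not given in the sources consulted. Library sizes and tests exclude the 5 counter rows without a gene, which held 8.81% to 12.8% (no gene), 2.02% to 2.2% (ambiguous) and 23.4% to 28.6% (several places) of each library.

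The test was edgeR 4.0.16 in R 4.3.3 (TMM, filterByExpr, robust quasi-likelihood fit, genotype as the only term, Benjamini-Hochberg adjustment over 15708 genes). Standard errors were the absolute log2 fold change over the square root of the quasi-likelihood F statistic. The 95% intervals built on them are not adjusted for the number of genes, so an uncalled gene can have an interval that is negative throughout. CPM values use TMM-scaled library sizes, and correlations and profiles use log2 CPM with a prior count of 2. CPM grows with transcript length, so levels are compared between libraries and not between genes. The fewest reads behind a value of the 8 genes, 1623, give a counting error of 2.48%, which covers counting only. Replicates were numbered in accession order. The sample titles carry codes whose meaning is not given, and Stag2KO replicates 1 and 2 alone share their letters (RM). Libraries of a group differed beyond counting noise (chi-square per degree of freedom 20.8 to 43.3), which separate preparations of 1 sample could also show. Each library is its own sample in the labels, and all were kept on that basis. The scripts were also run on simulated data.

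The 8 genes and the lists were chosen with earlier results of these data known; 1 further gene of the group and 2 of other lists are not reported here. Named were the 8 genes, Stag2, called genes of the 3 further membrane lists, genes with small p in the remaining lists and the 5 genes of most similar pattern. Some genes of these lists that were not called are named beside them. Smim1 was found as 1190007F08Rik through RefSeq synonyms, and 3 listed globin-related symbols that did not match the table were dropped. Alternatives were median-ratio size factors, 2 other filters, DESeq2 1.42.0, limma-voom (limma 3.58.1), no robust dispersion, globin genes left out, and each library left out in turn.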

Additional observations from a re-analysis of the deposited data

How the results depend on the processing

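The direction of all 8 red cell membrane genes was the same in every one of the 13 alternatives, with log2 fold changes from -1.30 to -0.35, but the number called depended on the setting. It was 5 with all libraries, 3 with median-ratio size factors, 6 with limma-voom, with at least 5 CPM in at least 3 libraries or without robust dispersion, 7 with DESeq2 and 5 with globin genes left out. With no filter beyond 1 read it was 2, Spnb1 (adjusted p = 0.00299) and Ank1 (0.0327), while Aqp1 (0.0557), Ermap (0.0854) and Rhag (0.103) lost their calls. The share of all tested genes called lower moved as well: it was 10.5% with all libraries, 13% with DESeq2, 11.4% at 5 CPM, 10.8% with median-ratio size factors, 10.3% without robust dispersion, 9.99% with limma-voom, 7.71% with no filter and 5.65% to 8.18% without 1 library. Without 1 library the count of the 8 genes ran from 2 to 5, and 0 were called higher in any fit. Fits without 1 library have fewer samples. Genes called in all numbered 3333, and 1967 to 2548 without 1 library, of which 962 to 1256 higher and 902 to 1311 lower. The difference of the Rhd to Rhag log2 ratio ran from -0.35 to -0.21 without 1 library. In the further lists DESeq2 called more genes lower: 8 heme synthesis genes in place of 2, 7 erythroid factor and receptor genes in place of 4, and 5 blood group and surface genes in place of 2, where it also called 2045 genes lower in place of 1647 over the whole table. Without a filter, heme synthesis genes called lower numbered 0. The cause of these shifts was not tested. No paired analysis was possible because the labels give the groups no shared replicate numbers.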
